A study of Mus musculus with 8 samples.

Results

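The genes described here are 33 genes of GABA signalling, taken by symbol from a fixed list: 14 subunits of the GABA-A receptor, both subunits of the GABA-B receptor, genes for making, packaging, breaking down and taking up GABA, chloride transporters, the scaffold gephyrin, and markers of interneurons. They are 33 of the 21368 genes that the arrays named, and 30 of them were bright enough to test among 16620 genes. Other subunits, transporters and interneuron peptides of the same system are not analysed here. Each was followed in the hippocampal RNA of 8 mice, with 1 one-colour Agilent array per mouse. The Hydroxyurea group held 4 mice that drank hydroxyurea, an inhibitor of ribonucleotide reductase, at 45 mg/kg/day for 10 weeks from an age of 9 to 14 weeks. Hydroxyurea 1 and 2 were 24 weeks old at the end of treatment and Hydroxyurea 3 and 4 were 19 weeks old. The Control group held 4 untreated mice, all 19 weeks old. Per the labels, all 8 were female nontransgenic littermates from the APPswe695/PSEN1dE9 line on a C57BL/6J background, so none carried the transgenes. No untreated mouse was 24 weeks old, and which mice shared a cage is not given. The series title places the comparison in work on the protection of hippocampal neurons from stress.

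GABA is the main inhibitory transmitter of the brain. In the hippocampus it is released by scattered interneurons onto pyramidal and granule cells, where it opens GABA-A receptors, pentameric chloride channels whose alpha, beta, gamma, delta or other subunits set their place at the cell surface and their drug sensitivity. GABA-B receptors act more slowly through G proteins, and the chloride gradient kept by cation-chloride cotransporters decides how strongly an open GABA-A channel inhibits.

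The value given for each mouse is the scaled log2 signal: log2 of the processed spot signal minus log2 of that array's 75th percentile, so that 0 is the brightness of the 75th percentile spot. The 75th percentile itself was 1915, 1052, 1680 and 2162 in Hydroxyurea 1 to 4, against 1813, 1677, 2417 and 1921 in Control 1 to 4. Replicate spots of a probe varied by a median of 12.1% on the Control 1 array and by 3.28% to 3.65% on the other arrays, so Control 1 and the dim Hydroxyurea 2 array stood apart. The Hydroxyurea arrays lay in 1 row of the slide and the Control arrays in the other, and row and treatment cannot be told apart. All 12 markers of excitatory hippocampal neurons, among them Prox1, the dentate granule cell factor, and Wfs1, a CA1 pyramidal cell gene, were well above background on all 8 arrays. Markers of neighbouring structures were detected as well, and they differed between mice. The mean deviation of 14 thalamus markers from their averages over the 8 mice was 0.03, -0.21, 0.89 and 0.16 on the log2 scale in the Hydroxyurea mice, against -0.40, -0.26, 0.06 and -0.27 in the Control mice. For 12 hypothalamus and septum markers it was 0.79, 0.09, 0.05 and 0.17 in the Hydroxyurea mice, against -0.58, -0.31, -0.09 and -0.13 in the Control mice, without overlap. All 12 of those markers had a higher mean in Hydroxyurea mice, as did 13 of the 14 thalamus markers. In whole tissue, fewer cells of a type and less RNA per cell cannot be told apart.

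No member differed between treated and untreated mice at the adjusted threshold. Of the 30 members tested, 17 had a log2 fold change above 0 and 13 below 0, where 48.7% of all 16620 genes lay above 0 and 51.3% below. The members' median was 0.03, beside -0.00 over all genes. With median centring only 11 of 30 members lay above 0, at a median of -0.05, beside -0.09 over all genes. Without Control 1, 21 of 30 members lay above 0. No member passed an adjusted p of 0.05 in limma, where 0% of all genes did, and the members' adjusted p ranged from 0.464 to 0.990. At an unadjusted p under 0.05 there was 1 member, Gabra2, which was lower in Hydroxyurea mice. Of all genes tested, 9.89% had such a p (3.53% higher and 6.36% lower, which is 586 and 1057 genes), so 1 of 30 members is not more than the background share. Centred on the array median instead, the genes with such a p split into 197 higher and 1934 lower. Gabra2 was also the only tested member whose 4 treated values all lay outside the Control range, against 7.47% of all genes without overlap (5.09% lower and 2.38% higher). The 95% interval of the fold change stayed within 1.5-fold in either direction for 25 of 30 members (83.3%) and for 77.7% of all genes. The 5 members whose interval reached past 1.5-fold were Slc6a13, Pvalb, Dlx1, Dlx6 and Reln.

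**Figure D1:**
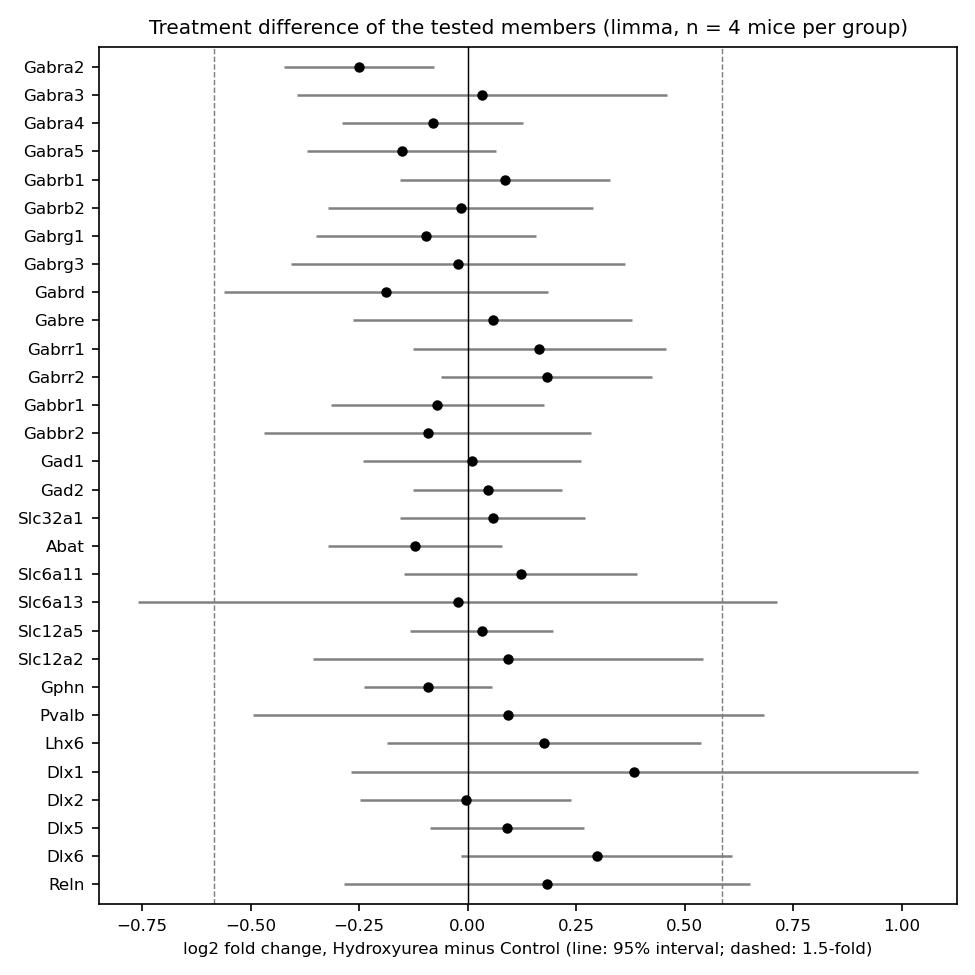
Log2 fold change of the 30 tested members, Hydroxyurea minus Control, from the limma fit with 4 mice per group. Points are estimates, lines are 95% intervals and dashed lines mark a 1.5-fold change. The interval of Gabra2 alone lies on one side of 0 (-0.42 to -0.08), and the widest belong to Slc6a13 and Dlx1.

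Gabra2 encodes an alpha subunit found at synapses on the cell body and axon initial segment of pyramidal cells. Its scaled log2 signal was 3.08, 2.80, 2.94 and 2.81 in Hydroxyurea 1 to 4, against 3.13, 3.21, 3.12 and 3.16 in Control 1 to 4. Every treated mouse lay below every untreated mouse, although Hydroxyurea 1 came close to the lowest Control value. The log2 fold change was -0.25 ± 0.07 (SE, n = 4 per group), a fold of 0.840, with an unadjusted limma p of 0.010 and an adjusted p of 0.464. The gene ranked 355th of 16620 by p. A second Gabra2 probe, made to another transcript record, gave 2.96, 2.67, 2.74 and 2.56 in the Hydroxyurea mice, against 2.99, 3.097, 2.96 and 2.99 in the Control mice. That probe had a log2 fold change of -0.28 ± 0.09 and an adjusted p of 0.524. Its groups also did not overlap, although Hydroxyurea 1 and Control 3 were almost level. Hydroxyurea 2, the dim array, held the lowest value of the first probe. Leaving out any 1 array kept the log2 fold change between -0.31 and -0.22.

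The other alpha subunits differed less. Gabra5, the subunit of extrasynaptic receptors that is enriched in the hippocampus, had 2.90, 2.79, 2.71 and 2.75 in the Hydroxyurea mice, against 2.88, 3.04, 2.73 and 3.11 in the Control mice. Control 2 and 4 were higher than all treated mice, whereas Control 1 and 3 lay among them. Between groups Gabra5 had a log2 fold change of -0.15 ± 0.09 and an adjusted limma p of 0.601. Gabra4, which pairs with the delta subunit on dentate granule cells, had 1.54, 1.56, 1.75 and 1.54 in the Hydroxyurea mice, against 1.52, 1.78, 1.60 and 1.82 in the Control mice. These groups overlapped, with a log2 fold change of -0.08 ± 0.09.

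Gabra3 had 2.96, 2.51, 3.03 and 2.95 in the Hydroxyurea mice, against 2.65, 2.72, 3.33 and 2.62 in the Control mice. One mouse of each group stood apart from its group: Hydroxyurea 2 was low and Control 3 was high. Its log2 fold change was 0.03 ± 0.18 with all mice and 0.20 without Control 3, and its sign turned with median centring and with normexp background correction. Gabra6, the alpha subunit of cerebellar granule cells, was well above background on 0 of 8 arrays. Its signals ran from -7.49 to -5.99 in the Hydroxyurea mice, against -8.31 to -7.27 in the Control mice. Those values carry no order below background.

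The beta subunits form part of the GABA binding site and were bright. Gabrb2 had 4.20, 4.39, 4.45 and 4.18 in the Hydroxyurea mice, against 4.65, 4.31, 4.03 and 4.30 in the Control mice. Gabrb1 had 3.17, 3.27, 3.17 and 3.003 in the Hydroxyurea mice, against 3.29, 3.12, 2.85 and 3.002 in the Control mice. For both genes the Control range enclosed the whole Hydroxyurea range, with Control 1 highest and Control 3 lowest of the 8 mice. The log2 fold changes were -0.02 ± 0.13 for Gabrb2 and 0.09 ± 0.10 for Gabrb1.

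Gamma subunits anchor receptors at synapses. Gabrg1 had 1.07, 0.64, 0.78 and 0.87 in the Hydroxyurea mice, against 0.92, 0.80, 1.13 and 0.91 in the Control mice. Gabrg3, a dim probe here, had -3.33, -3.23, -3.12 and -3.55 in the Hydroxyurea mice, against -2.96, -3.12, -3.69 and -3.37 in the Control mice. Both overlapped between groups, with log2 fold changes of -0.10 ± 0.11 and -0.02 ± 0.17. A second, dimmer probe of each gene gave 0.02 ± 0.13 for Gabrg1 and -0.01 ± 0.11 for Gabrg3. Gabrd, the delta subunit of receptors that carry tonic inhibition in the dentate gyrus, had 2.25, 2.62, 2.89 and 2.43 in the Hydroxyurea mice, against 3.03, 2.59, 2.51 and 2.82 in the Control mice. Hydroxyurea 1 was its lowest mouse and Control 1 its highest, and the log2 fold change was -0.19 ± 0.16. It was -0.09 without Hydroxyurea 1 and also -0.09 without Control 1.

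Gabre, the epsilon subunit, had -4.11, -4.22, -3.89 and -4.03 in the Hydroxyurea mice, against -4.20, -3.76, -4.11 and -4.41 in the Control mice. The probe used was made to a predicted transcript, and a second probe for the curated transcript was well above background on only 1 of 8 arrays. The log2 fold change of 0.06 ± 0.14 turned sign with quantile normalization and median centring, and became 0.84 with the mean of both probes, one of which is mostly below background. Gabrq, the theta subunit, was well above background on 0 of 8 arrays, at -8.21 to -7.11 in the Hydroxyurea mice and -8.67 to -6.63 in the Control mice.

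The rho subunits, best known from the retina, were both above 0 in the comparison under each scaling tried, and neither passed the test. Gabrr2 had -0.12, 0.21, 0.04 and -0.05 in the Hydroxyurea mice, against -0.04, -0.09, -0.40 and -0.12 in the Control mice. Gabrr1 had -2.28, -1.87, -2.18 and -2.45 in the Hydroxyurea mice, against -2.44, -2.27, -2.47 and -2.26 in the Control mice. The dim Hydroxyurea 2 array was highest for both genes and Control 3 lowest. The log2 fold changes were 0.18 ± 0.11 for Gabrr2 and 0.17 ± 0.13 for Gabrr1. Without Hydroxyurea 2 they were 0.12 and 0.06, and without Control 3 Gabrr2 had 0.10.

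**Figure D2:**
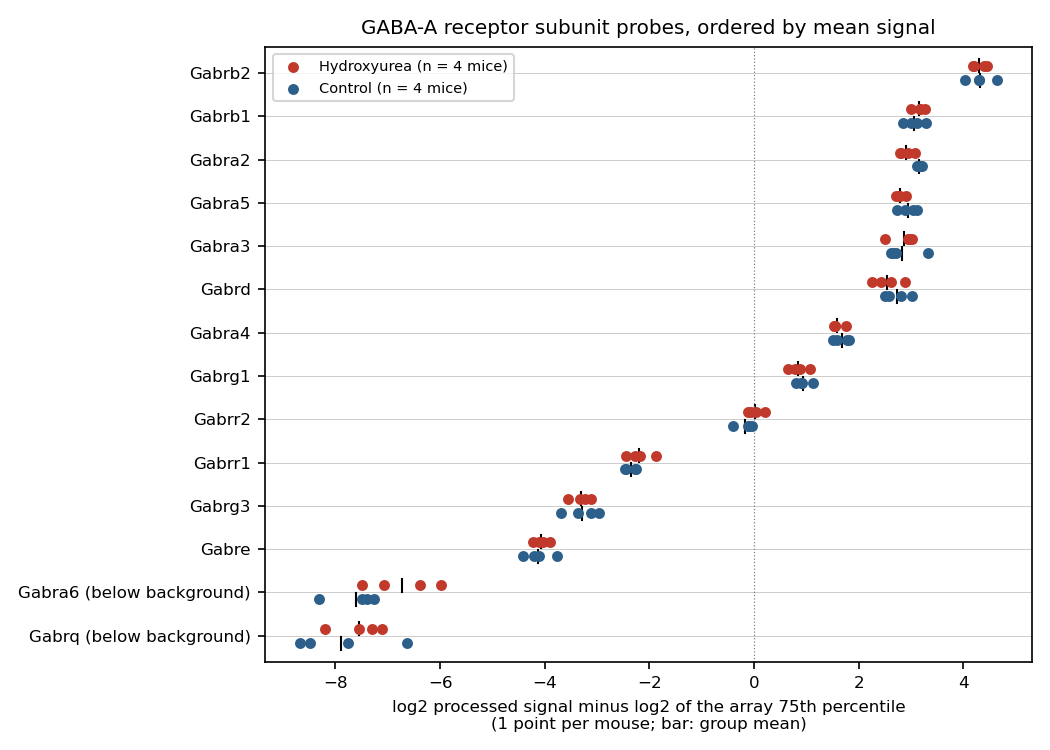
Scaled log2 signal of the 14 GABA-A subunit probes in each mouse, in order of the mean over 8 mice. Points are mice, bars are group means, and 0 is the 75th percentile of an array. Gabrb2 is brightest at a mean of 4.31, the groups separate only for Gabra2 among the tested subunits, and Gabra6 and Gabrq lie below background.

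Ordered by mean probe signal over the 8 mice, Gabrb2 came first at 4.31 ± 0.19 (SD, n = 8). Gabrb1 (3.11), Gabra2 (3.03), Gabra5 (2.86), Gabra3 (2.85) and Gabrd (2.64) followed as a block in which most neighbours were closer than their spread allows to separate. Within that block Gabra2 exceeded Gabra5 in all 8 mice, by 0.17 ± 0.13 (SD, n = 8), whereas Gabra5 exceeded Gabra3 in 4 of 8, and Gabrb1 exceeded Gabra2 and Gabra3 exceeded Gabrd in 5 of 8. Below it, each step held in all 8 mice, through Gabra4 (1.64), Gabrg1 (0.89), Gabrr2 (-0.07), Gabrr1 (-2.28), Gabrg3 (-3.30) and Gabre (-4.09). The step from Gabrb2 to Gabrb1 was 1.21 ± 0.10 and that from Gabrd to Gabra4 was 1.01 ± 0.24 (SD, n = 8). This is an order of probe brightness and not of RNA abundance. Probes differ in how well they bind, and among 4064 genes with several detected probes the brightest and dimmest differed by a median of 2.34 on the log2 scale. Among 10 such members the median gap was 3.97, from 0.16 for Gabra2 to 8.88 for Slc12a5. With the mean of all probes of a gene, 5 of the 14 ranks changed, and with the dimmest probe 8 did. Normexp background correction changed ranks as well.

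**Figure D3:**
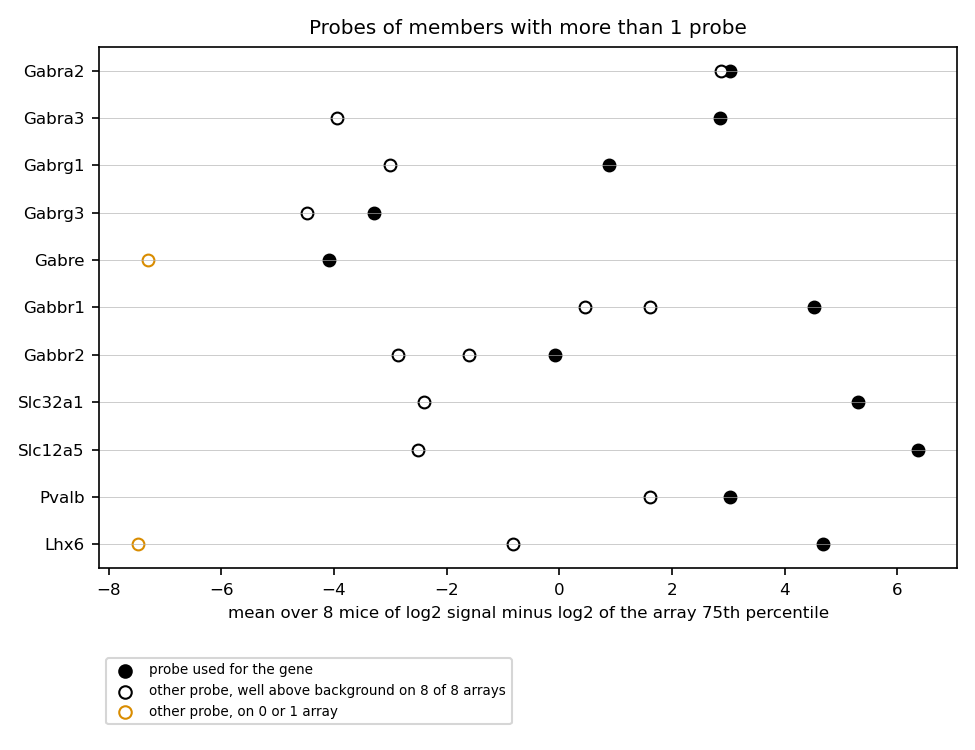
Mean scaled log2 signal over 8 mice of every probe of the members that had more than 1 probe. Filled points are the probes used, and open points are the others, with orange for those seen on 0 or 1 array. The probes of Gabra2 nearly coincide, whereas those of Gabra3, Slc32a1 and Slc12a5 lie 6.80, 7.70 and 8.88 apart on the log2 scale.

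Several of these subunit genes are neighbours in the genome. Gabrg1, Gabra2, Gabra4 and Gabrb1 form a run on chromosome 5 with 1 other protein-coding gene inside it, and their log2 fold changes were -0.10, -0.25, -0.08 and 0.09. Gabra6 and Gabrb2 are adjacent on chromosome 11, and one was below background while the other was the brightest subunit probe. On the X chromosome, Gabra3 lies next to Gabrq, with Gabre on its other side beyond 1 gene. Their mean signals were 2.85, -7.71 and -4.09. The 250 bases upstream of the start of Gabra2, the one member with separated groups, and of the X-linked neighbours Gabra3 and Gabrq are shown from RefSeq, build GRCm38.p6, read 5′ to 3′ on the strand of the gene. The intervals are chr5:71095850-71096099 on the minus strand for Gabra2, chrX:72656920-72657169 on the minus strand for Gabra3, and chrX:72824928-72825177 on the plus strand for Gabrq. Capitals mark each CG dinucleotide.
Gabra2: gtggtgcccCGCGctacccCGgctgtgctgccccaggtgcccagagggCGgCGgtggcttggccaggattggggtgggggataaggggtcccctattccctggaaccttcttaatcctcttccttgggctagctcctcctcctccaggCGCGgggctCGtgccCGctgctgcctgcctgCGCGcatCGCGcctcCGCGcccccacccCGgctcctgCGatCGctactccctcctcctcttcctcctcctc
Gabra3: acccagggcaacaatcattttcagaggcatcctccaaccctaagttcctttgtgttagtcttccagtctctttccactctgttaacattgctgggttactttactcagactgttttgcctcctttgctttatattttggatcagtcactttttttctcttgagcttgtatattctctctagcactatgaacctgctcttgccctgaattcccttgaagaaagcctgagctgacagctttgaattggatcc
Gabrq: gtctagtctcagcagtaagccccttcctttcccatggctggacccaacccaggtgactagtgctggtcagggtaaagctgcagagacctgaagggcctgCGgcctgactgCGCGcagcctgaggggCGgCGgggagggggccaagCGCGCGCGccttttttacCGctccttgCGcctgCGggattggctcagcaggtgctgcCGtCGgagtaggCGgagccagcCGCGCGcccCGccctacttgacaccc
The Gabra2 window holds 18 CG dinucleotides with a GC content of 70.0%, that of Gabrq holds 19 with 67.2%, and that of Gabra3 holds 0 with 42.4%. The table holds 2 windows for Gabra3, of which 1 is shown. Of the 33 members, 28 had a window in the table, with a median of 13 CG against 6 over all 27025 genes. Only 1 window was read per gene, also where the table holds several. The letters TATAAA, searched on both strands, were found in 3 of 28 member windows (10.7%: Gabra3, Gabrb2 and Gad1) and for 13.0% of all genes. The letters TAATTA, the core read by many homeodomain factors and its own reverse complement, were found in 1 member window (3.57%: Gabrg1) and for 4.90% of all genes.

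The GABA-B receptor works as a dimer of a GABA-binding subunit, Gabbr1, and a G-protein-coupling subunit, Gabbr2. Gabbr1 had 4.43, 4.52, 4.57 and 4.40 in the Hydroxyurea mice, against 4.85, 4.51, 4.36 and 4.50 in the Control mice. Gabbr2 had -0.01, 0.03, 0.02 and -0.56 in the Hydroxyurea mice, against 0.26, -0.08, -0.26 and -0.07 in the Control mice. Control 1 was highest for both genes, and Hydroxyurea 4 alone was low for Gabbr2. The log2 fold changes were -0.07 ± 0.11 for Gabbr1 and -0.09 ± 0.16 for Gabbr2. They turned to 0.03 for Gabbr1 without Control 1 and to 0.05 for Gabbr2 without Hydroxyurea 4. The other 2 probes of Gabbr1, both detected on 8 arrays, had log2 fold changes above 0 (0.03 and 0.07). The other 2 probes of Gabbr2 were also lowest in Hydroxyurea 4.

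Gad1 and Gad2 encode the glutamate decarboxylases that make GABA, and Slc32a1 the transporter that loads it into vesicles, so all 3 mark GABAergic terminals and cell bodies. Gad1 had 4.22, 4.15, 4.51 and 4.33 in the Hydroxyurea mice, against 4.51, 4.31, 4.14 and 4.21 in the Control mice. Gad2 had 3.48, 3.26, 3.47 and 3.28 in the Hydroxyurea mice, against 3.39, 3.38, 3.27 and 3.27 in the Control mice. Slc32a1 had 5.45, 5.12, 5.48 and 5.25 in the Hydroxyurea mice, against 5.25, 5.30, 5.35 and 5.17 in the Control mice. The groups overlapped for each gene, and Hydroxyurea 3 was highest for Gad1 and Slc32a1. Their log2 fold changes were 0.01 ± 0.11, 0.05 ± 0.07 and 0.06 ± 0.09, and each turned sign with median centring. The 95% intervals were -0.24 to 0.26 for Gad1, -0.13 to 0.22 for Gad2 and -0.16 to 0.27 for Slc32a1. Abat, the transaminase that breaks GABA down, had 5.04, 4.92, 4.98 and 4.97 in the Hydroxyurea mice, against 5.28, 5.07, 5.16 and 4.89 in the Control mice. Only Control 4 fell below the treated mice, and the log2 fold change was -0.12 ± 0.09.

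GABA is cleared by transporters, of which Slc6a11 is that of astrocytes and Slc6a13 is found mainly in the meninges. Slc6a11 had 1.13, 0.64, 1.11 and 0.76 in the Hydroxyurea mice, against 0.81, 0.77, 0.77 and 0.80 in the Control mice. The Control mice lay close together, while Hydroxyurea 1 and 3 lay above them and Hydroxyurea 2 and 4 below. For Slc6a11 the log2 fold change was 0.12 ± 0.12. Slc6a13 had 0.21, 0.34, -0.38 and 0.99 in the Hydroxyurea mice, against -0.16, 0.63, 0.79 and -0.01 in the Control mice. Its log2 fold change was -0.02 ± 0.32, with a 95% interval of -0.76 to 0.71. The mean deviation of 12 markers of meninges and fibroblasts was -0.08, -0.15, -0.36 and 0.77 in the Hydroxyurea mice, against -0.60, 0.20, 0.44 and -0.21 in the Control mice. Slc6a13 was highest in Hydroxyurea 4, as were those markers. It was lowest in Hydroxyurea 3, whereas the markers were lowest in Control 1. Of the 12 markers, 7 had a higher mean in Hydroxyurea mice, with summed signals of 124 to 198 in the Hydroxyurea mice and 118 to 188 in the Control mice, in multiples of the array percentile. None of the 12 was undetected on all arrays, and their part in the Slc6a13 values was not tested.

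Chloride is pumped out of neurons by Slc12a5 and brought into cells by Slc12a2. Slc12a5 was the brightest member, with 6.32, 6.52, 6.42 and 6.29 in the Hydroxyurea mice, against 6.41, 6.39, 6.25 and 6.36 in the Control mice. The log2 fold change was 0.03 ± 0.07 and turned sign with quantile normalization, median centring and normexp. Slc12a2 had 2.53, 2.22, 2.56 and 3.14 in the Hydroxyurea mice, against 2.61, 2.22, 2.70 and 2.56 in the Control mice. Hydroxyurea 4 alone was high, and the log2 fold change was 0.09 ± 0.19 with it and -0.08 without it. Markers of choroid plexus, an epithelium that also carries Slc12a2, had a mean deviation of -1.24, 0.91, 0.18 and 2.74 in the Hydroxyurea mice, against -2.11, -1.01, 0.85 and -0.33 in the Control mice. All 14 had a higher mean in Hydroxyurea mice, none was undetected on all arrays, and their summed signal was 43.0 to 358 in the Hydroxyurea mice and 30.8 to 163 in the Control mice. Hydroxyurea 2 was next highest for those markers but among the lowest mice for Slc12a2. Oligodendrocyte markers had a mean deviation of 0.15, -0.38, 0.10 and 0.23 in the Hydroxyurea mice, against 0.11, -0.27, 0.04 and 0.02 in the Control mice. They were highest in Hydroxyurea 4 and lowest in Hydroxyurea 2 and Control 2, as was Slc12a2. Of those 10 markers, 8 had a higher mean in Hydroxyurea mice. The part of either list in the Slc12a2 values was not tested. Gphn, the scaffold that holds GABA-A receptors at synapses, ranged from 2.91 to 3.09 in the Hydroxyurea mice and from 2.99 to 3.12 in the Control mice, with a log2 fold change of -0.09 ± 0.06.

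**Figure D4:**
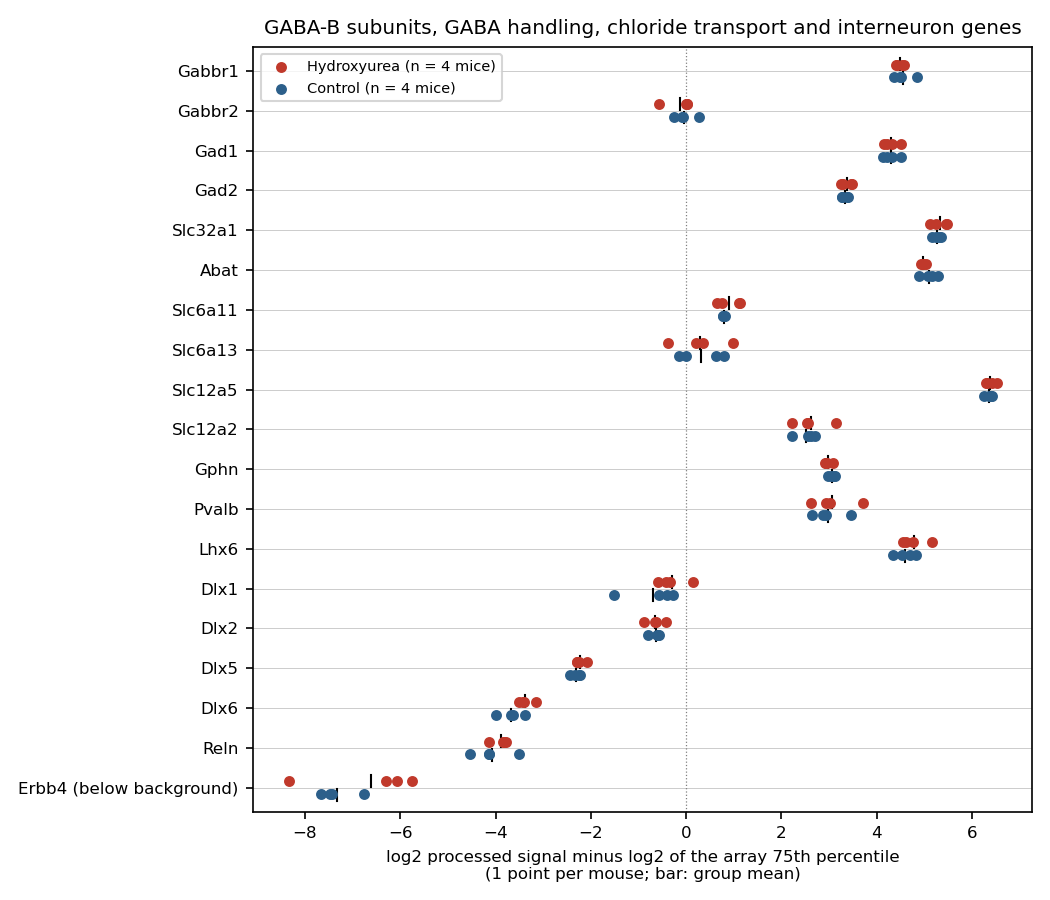
Scaled log2 signal of the other 19 members in each mouse, by role. Points are mice and bars are group means. Slc12a5 is brightest at a mean of 6.37, the groups overlap for every gene shown, and Erbb4 lies below background.

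Of 8 interneuron markers, 7 were tested, and 6 of those had a log2 fold change above 0, with a median of 0.17. Among all genes, 48.7% lay above 0. None of the 7 had an unadjusted p under 0.05, as 9.89% of all genes did. The second detected probes of Pvalb and Lhx6 were below 0, at -0.05 ± 0.20 and -0.13 ± 0.11. Of 31 further interneuron genes, given below, 15 were above 0 and 16 below. Pvalb, Dlx1, Dlx6 and Reln are given mouse by mouse because their intervals were wide, a choice made after their values were seen. Pvalb, the calcium-binding protein of fast-spiking basket cells, had 2.61, 2.93, 3.72 and 3.02 in the Hydroxyurea mice, against 3.46, 2.93, 2.64 and 2.88 in the Control mice. Hydroxyurea 3 and Control 1 were high. For Pvalb the log2 fold change was 0.09 ± 0.26, with a 95% interval of -0.50 to 0.68, and it was -0.12 without Hydroxyurea 3. A second Pvalb probe gave 1.31, 1.22, 2.21 and 1.60 in the Hydroxyurea mice, against 1.55, 1.63, 1.63 and 1.70 in the Control mice, so that Hydroxyurea 3 was high with both probes and Control 1 with only one. Hydroxyurea 3 also had the highest score for the thalamus markers, 0.89. Control 1, the next highest mouse with the first Pvalb probe, had the lowest score for those markers, -0.40. Their summed signal was 12.9 to 30.0 in the Hydroxyurea mice and 12.6 to 16.3 in the Control mice, none was undetected on all arrays, and their part in the Pvalb values was not tested.

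The Dlx genes are homeodomain factors of forebrain GABAergic neurons, paired as neighbours on chromosomes 2 (Dlx1 and Dlx2) and 6 (Dlx5 and Dlx6). Dlx1 had 0.15, -0.59, -0.43 and -0.34 in the Hydroxyurea mice, against -1.51, -0.40, -0.28 and -0.56 in the Control mice. Dlx6 had -3.14, -3.42, -3.41 and -3.52 in the Hydroxyurea mice, against -3.99, -3.67, -3.62 and -3.39 in the Control mice. Hydroxyurea 1 was highest and Control 1 lowest for both genes. The log2 fold change of Dlx1 was 0.38 ± 0.28 with all mice, 0.23 without Hydroxyurea 1 and 0.11 without Control 1. That of Dlx6 was 0.30 ± 0.14, with an unadjusted p of 0.060, an adjusted limma p of 0.517 and a 95% interval of -0.02 to 0.61. Without Control 1 it was 0.19. Dlx5 ranged from -2.29 to -2.07 in the Hydroxyurea mice and from -2.44 to -2.23 in the Control mice (0.09 ± 0.08). Dlx2 ranged from -0.87 to -0.42 in the Hydroxyurea mice and from -0.80 to -0.56 in the Control mice, with a log2 fold change of -0.00 ± 0.11 that turned sign with normexp and with the percentile taken over probes detected on all arrays. All 4 Dlx genes were highest in Hydroxyurea 1, the mouse with the highest score for hypothalamus and septum markers (0.79). Control 1 had the lowest such score (-0.58) and was lowest for Dlx1 and Dlx6. Dlx2 was lowest in Hydroxyurea 2 and Dlx5 in Control 4, whose scores were 0.09 and -0.13. The summed signal of those 12 markers was 6.55 to 18.7 in the Hydroxyurea mice and 4.17 to 9.04 in the Control mice, and none was undetected on all arrays. For 11 striatum markers the mean deviation was highest in Hydroxyurea 3 (0.11), with 0.09 in Hydroxyurea 1, and lowest in Control 4 (-0.14). Of those 11, 7 had a higher mean in Hydroxyurea mice. The part of either list in the Dlx values was not tested.

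Lhx6, a factor of interneurons born in the medial ganglionic eminence, ranged from 4.55 to 5.16 in the Hydroxyurea mice and from 4.34 to 4.83 in the Control mice. Hydroxyurea 2, the dim array, was highest, and the log2 fold change of 0.17 ± 0.16 was set against -0.13 ± 0.11 by a second, dimmer probe. Without Hydroxyurea 2 the first probe gave 0.05, and without Control 3 it gave 0.09. Reln, the secreted protein of Cajal-Retzius cells and some interneurons, had -3.79, -3.81, -4.13 and -3.84 in the Hydroxyurea mice, against -4.54, -4.13, -3.51 and -4.14 in the Control mice. The Control mice enclosed the treated ones, and the log2 fold change of 0.18 ± 0.20 was 0.03 without Control 1 and 0.37 without Control 3. Erbb4, a neuregulin receptor of interneurons, was well above background on 0 of 8 arrays, at -8.34 to -5.75 in the Hydroxyurea mice and -7.66 to -6.77 in the Control mice. For Erbb4, which had 1 probe, these values therefore give no level of its RNA in either group.

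Some mice stood high or low for several members at once. Hydroxyurea 1 was the highest mouse for 6 of the 30 tested members, and the dim Hydroxyurea 2 was the lowest for 8 and the highest for 4. Control 1 was the highest for 7 and Control 3 the lowest for 9. For Gabrb1, Gabrb2, Gabrg3 and Gabbr1 Control 1 was highest and Control 3 lowest. The mean deviation of the excitatory hippocampal neuron markers was -0.05, 0.15, -0.03 and -0.19 in the Hydroxyurea mice, against 0.17, 0.07, -0.27 and 0.15 in the Control mice, highest in Control 1 and lowest in Control 3. Of those 12 markers 3 had a higher mean in Hydroxyurea mice, with summed signals of 81.6 to 98.7 in the Hydroxyurea mice and 77.7 to 99.1 in the Control mice, and their part in the receptor values was not tested. The members' within-group SD had a median of 0.17 on the log2 scale, beside 0.15 over all genes tested, and 21 of 30 members lay above that gene-wide median.

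**Figure D5:**
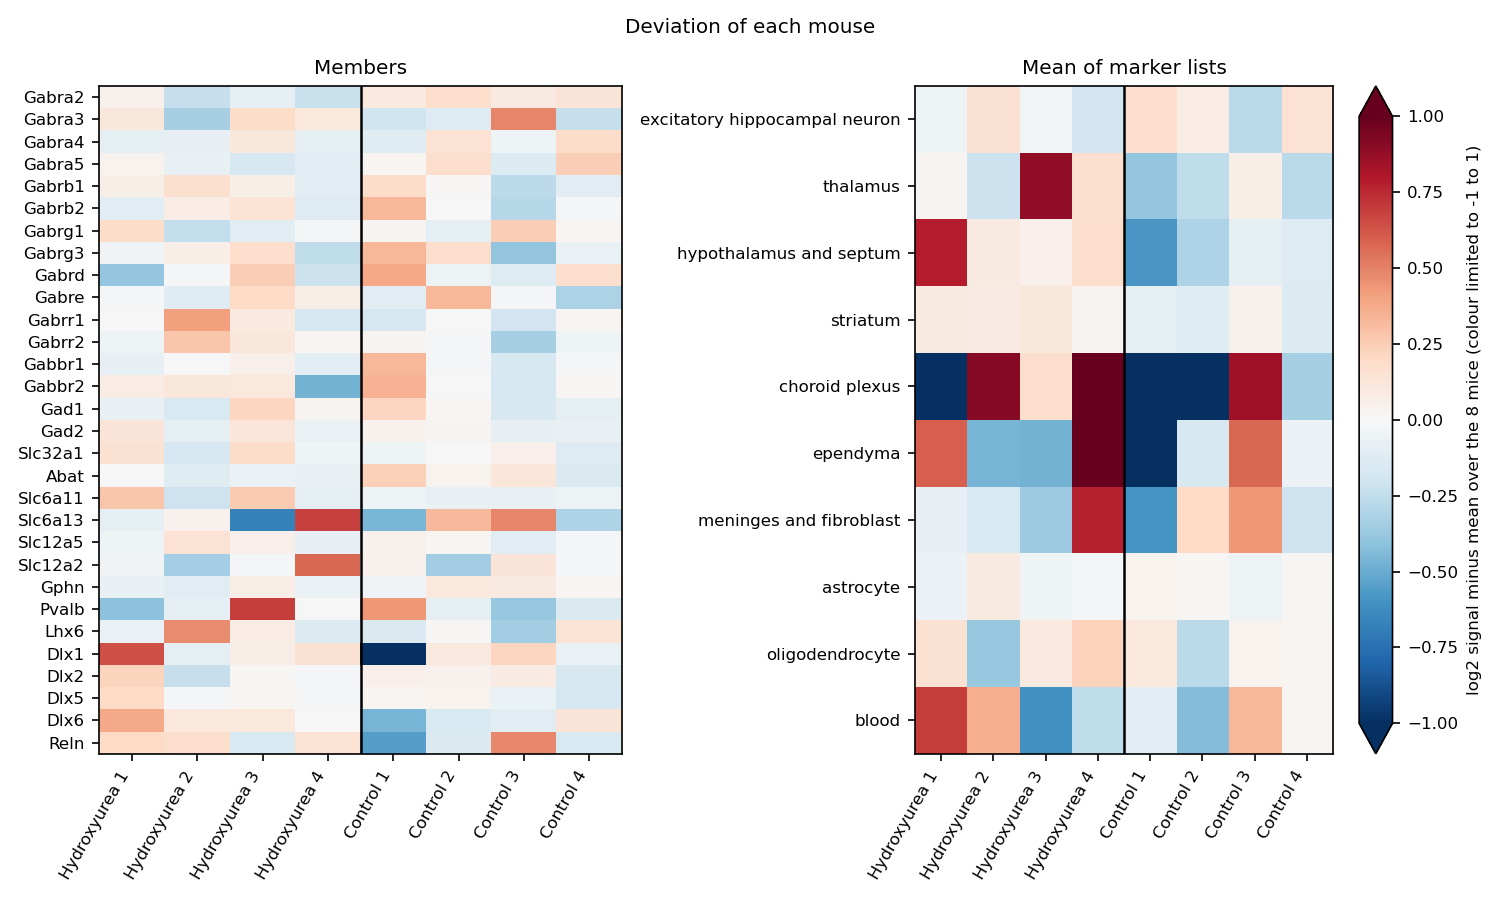
Deviation of each mouse from the mean over 8 mice, on the log2 scale with colours limited to -1 and 1, for the 30 tested members (left) and for the mean of each marker list (right). Hydroxyurea mice stand left of the black line and Control mice right of it. Hydroxyurea 3 is highest for Pvalb and for the thalamus markers (0.89). Control 1, the next highest mouse for Pvalb, is lowest for the thalamus markers (-0.40). Hydroxyurea 1 is highest for the Dlx genes and for the hypothalamus and septum markers (0.79). Hydroxyurea 4 is highest for Slc6a13, Slc12a2 and the choroid plexus markers (2.74). Hydroxyurea 2 is next for the choroid plexus markers (0.91) but low for Slc12a2. Control 2 is low for those markers (-1.01) but above the mean for Slc6a13.

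Within the Hydroxyurea group, the 2 mice of 24 weeks were set against the 2 of 19 weeks. No member had an unadjusted limma p under 0.05, where 2.70% of all genes did, and 0% of genes passed the adjusted threshold. The largest member difference was that of Pvalb, -0.60 ± 0.31, followed by Slc12a2 at -0.47 ± 0.24, with Hydroxyurea 3 high for Pvalb and Hydroxyurea 4 high for Slc12a2. With 2 mice per age the intervals are wide, and age has no untreated counterpart.

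Further genes around these receptors were counted in 6 lists, and no gene in them passed the adjusted threshold. The shares of all genes to read them against are 48.7% above 0, 9.89% with an unadjusted p under 0.05 and 7.47% with groups that do not overlap. Of 21 genes for clustering and assembly of GABA-A receptors, 13 were above 0 and 8 below, with a median of 0.03 (-0.05 with median centring), and 1 in each direction had an unadjusted p under 0.05, which is close to the share of all genes. Clptm1, which holds GABA-A subunits back in the endoplasmic reticulum, had 3.80, 3.74, 3.91 and 3.87 in the Hydroxyurea mice, against 3.65, 3.65, 3.66 and 3.68 in the Control mice. The groups did not overlap, with a log2 fold change of 0.17 ± 0.06 and an adjusted p of 0.476. Shisa7, an auxiliary subunit of GABA-A receptors, had -0.24 ± 0.09, and Nlgn2, the adhesion protein of inhibitory synapses, had 0.13 ± 0.06.

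Of 14 GABA-B partners and effectors, 6 were above 0 and 8 below (median -0.04), with unadjusted p under 0.05 for 1 higher and 2 lower. Kcnj5, a dim probe here for a subunit of potassium channels that GABA-B receptors open, had 0.37 ± 0.14. Gnb5, a G-protein beta subunit bound to RGS proteins, had -0.15 ± 0.06. Both had groups without overlap. Control 3 (-3.70) came close to Hydroxyurea 3 (-3.67) for Kcnj5, and Control 1 (3.14) to Hydroxyurea 1 (3.11) for Gnb5. Kctd12, an auxiliary GABA-B subunit, had -0.23 ± 0.10. Of 11 genes of GABA metabolism and the glutamine cycle, 6 were above 0 and 5 below (median 0.07, or -0.01 with median centring), with 1 such p in each direction. Slc38a3, an astrocyte glutamine transporter, had 0.86, 1.25, 0.86 and 1.28 in the Hydroxyurea mice, against 0.84, 0.69, 0.56 and 0.79 in the Control mice. Hydroxyurea 1 and 3 lay just above Control 1, with no overlap and a log2 fold change of 0.34 ± 0.12. Slc38a5, a related transporter, had -0.59 ± 0.25, and Aldh9a1, an aldehyde dehydrogenase that can yield GABA, had 0.14 ± 0.08.

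Of 14 genes of chloride transport and its kinases, 11 were above 0 and 3 below (median 0.03, or -0.05 with median centring), none with an unadjusted p under 0.05. Those with the smallest p were the cotransporters Slc12a7 (0.33 ± 0.20) and Slc12a4 (0.23 ± 0.16) and the carbonic anhydrase Car7 (0.17 ± 0.12). Of 31 further interneuron genes, 15 were above 0 and 16 below (median -0.03, or 0.08 with normexp), and 1 had such a p. That was Htr3a, the ionotropic serotonin receptor of a class of interneurons, with -1.05, -0.96, -0.91 and -1.03 in the Hydroxyurea mice, against -1.68, -1.07, -1.34 and -1.47 in the Control mice. The groups did not overlap, although Control 2 came close to the treated mice, and the log2 fold change was 0.40 ± 0.12 with an adjusted limma p of 0.467. The growth factor Igf1 had -0.17 ± 0.08 and the tachykinin Tac2 had 0.26 ± 0.14. Of 10 genes of the perineuronal net, the matrix around Pvalb cells, 3 were above 0 and 7 below (median -0.04), with 1 such p. The proteoglycan Vcan had -0.27 ± 0.11, the link protein Hapln1 had -0.17 ± 0.08 and the hyaluronan synthase Has3, a dim probe, had 0.68 ± 0.52.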

How the data were processed

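Hippocampal total RNA of 4 Hydroxyurea and 4 Control mice was labelled with Cy3, per the labels' protocols, and hybridised to 1 slide that was scanned once. Per the file headers, Feature Extraction 12.0.3.1 produced the deposited processed signal intensity of each spot, which has the background taken off but no normalization between arrays, as well as median signal and background intensities and flags for outlier spots and spots well above background. In the authors' deposited value table each score is a z value of log signal across an array's 62976 features; a recomputed score differed by at most 0.005, its columns have medians of -0.21 to -0.17, and it is on no log2 scale. The headers name mm9, whereas names and promoter windows come from RefSeq tables of GRCm38.p6.

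Of 55681 non-control probes, 28331 carried an accession of 1 gene, naming 21368 genes. Spots of a probe were averaged without outliers. The probe with the highest mean stood for each of 5754 genes with several. Testing required a probe well above background on 4 or more of the 8 arrays and a value on 6 or more. Detection differed between arrays: 59.7% to 69.0% of probes were well above background on the Hydroxyurea arrays and 62.1% to 76.7% on the Control arrays, and no spot was saturated. The number of arrays limits the precision.

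The two-sided test was limma's moderated one (version 3.58.1, functions lmFit and eBayes, R 4.3.3), Benjamini-Hochberg adjusted across 16620 genes, at a threshold of 0.05. Errors of fold changes are standard errors, and intervals are 95% intervals. The age comparison used 3 group means over all 8 arrays. The fit was tested on simulated data. The labels describe the samples as separate mice. The mean deviation of a marker list averages, over its tested genes, how far a mouse lay from the 8-array mean on the log2 scale, and summed signals are sums of linear signal in multiples of the array percentile.

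Members and lists were chosen with earlier results of these data known, so no set test was run and no p was adjusted over a list. Every GABA receptor, synthesis, transport and chloride gene was to be given mouse by mouse, other members by range, and of each further list the 3 genes with the smallest p. Replicate numbers were not treated as pairs, because the labels describe separate mice. Deviations of mice with the same number correlated at 0.05, 0.20, -0.21 and -0.06. Mice of different numbers were not compared in this way, so these values cannot decide whether the mice were paired. Alternatives were other scalings, normexp background correction with an offset of 50 (on median signals), the value table, other filters, probe rules and variance models, age, a replicate block and leaving out arrays.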

Additional observations from a re-analysis of the deposited data

Results flagged for a closer look

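Of 60 groups of 4 values, for 30 tested members in 2 groups, 5 held a mouse whose gap to its nearest neighbour, as a share of the range of the group, exceeded Dixon's 95% critical value. Chance alone marks about 1 in 20 groups. Gabra3, an alpha subunit of GABA-A receptors, was 2.51 in Hydroxyurea 2, where the other treated mice had 2.95 to 3.03, and 3.33 in Control 3, where the other Control mice had 2.62 to 2.72. Gabra3 thus held an outlying mouse in each group, in opposite directions. Gabra4 was 1.75 in Hydroxyurea 3, where the other treated mice had 1.54 to 1.56. Gabbr2, the coupling subunit of the GABA-B receptor, was -0.56 in Hydroxyurea 4, where the others had -0.01 to 0.03. Reln was -4.13 in Hydroxyurea 3, where the other treated mice had -3.84 to -3.79.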

How the results depend on the processing

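No member and no gene passed the adjusted threshold between Hydroxyurea and Control mice under any of the 22 alternatives. The number of members at an unadjusted p under 0.05 was 1, and it was 2 with median centring (Gabra2 and Gabra5), 2 with no filter on dim probes (Gabra2 and Gabra6, which was below background), 2 with array weights (Gabra2 and Gabra5), and 1 to 3 when each array was left out, reaching 3 without Control 3 (with Gabra5 and Reln) and without Control 4 (with Abat and Dlx6). Gabra2 was among them in every alternative on the log2 scale, with log2 fold changes from -0.33 to -0.22. In the deposited z score table it was not, and Slc32a1 was. The replicate block gave 1 such member and a smallest adjusted p of 0.605 over all genes. Between ages, 0 genes passed, and 0 to 7 when each Hydroxyurea array was left out (1 without Hydroxyurea 3, 7 without Hydroxyurea 4). The members at an unadjusted p under 0.05 between ages were 0, and 3 with normexp (Dlx6, Gad1 and Reln), 1 with the mean of all probes (Pvalb), 1 without Control 1 and Hydroxyurea 2 together (Dlx1), and 0 to 2 when each Hydroxyurea array was left out. Each of those age fits leaves 1 age with a lone mouse, which is assumed to vary like the other groups. Over the alternatives on the log2 scale, 16 of 30 members kept their sign and 14 turned it at least once, and 3 of 630 values moved by over 1 SD. That SD is the spread between mice within a group. The cause of these changes was not tested. Other filters, other eBayes options and the replicate block cannot alter a member's log2 fold change. Nor can the mean of all probes for a member with 1 probe. The 630 values thus include many that could not move. The members' median of 0.03 ranged from -0.05 to 0.06, with -0.05 and 11 of 30 members above 0 under median centring. Without Control 1, 21 of 30 members lay above 0, as they did without Control 1 and Hydroxyurea 2 together. Median centring, which moved the median of all genes to -0.09, also turned the medians of the clustering and assembly list (-0.05), the metabolism list (-0.01) and the chloride list (-0.05). The interneuron list moved from -0.03 to 0.08 with normexp and to -0.11 with median centring. Many members' values, most of them small, also changed sign or moved by over 1.5 times when a single array was left out. At 4 mice per group, Slc6a13, Pvalb, Dlx1, Dlx6 and Reln have intervals reaching past 1.5-fold, and Gabra6, Gabrq and Erbb4 have none.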
